A study of Arabidopsis thaliana with 9 samples.

Results

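Roots of Arabidopsis thaliana seedlings grown on carbenicillin for 7 days were compared with roots of mock seedlings across all genes that passed a low-count filter, 19580 of the 28775 genes in the count table. The comparison used 6 of the 9 libraries of the series, 3 from each group, chosen by the group named in the sample titles. All seedlings were of the Col-0 ecotype and grew at 24 °C with 16 h of light and 8 h of dark, and every seedling spent 6 days on one plate and then 1 day on another. Mock seedlings had plain ½ MS medium on both plates, and 7 day seedlings had 10 µg/mL of carbenicillin in both. A further group of 3 libraries met the same dose on the second plate alone, for 1 day. Those libraries entered the fit to estimate the spread between replicates, and their values are given beside those of the 7 day roots. Replicas carry numbers in the labels, but nothing there ties them to separate cultures. The p-values therefore reflect the spread among these libraries alone, and that spread may be technical.

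Carbenicillin is a beta-lactam antibiotic that blocks the cross-linking of peptidoglycan in bacterial walls. Plant walls hold no peptidoglycan, although moss plastids are known to depend on homologs of the bacterial synthesis enzymes, and beta-lactams are widely used in plant tissue culture to clear Agrobacterium. The root transcriptome carries readouts of several nutrient and signalling states. The transcription factor HY5 drives light-responsive genes, including those of flavonol synthesis, also in roots that see light. LSU and SDI transcripts mark a shortage of sulfur, DIN transcripts mark darkness and low sugar, and the P450 enzymes of camalexin synthesis mark defence.

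Depth and a few other features set some libraries apart from the rest. Total counts were 5820675 in mock 1, 15836536 in mock 2 and 14730117 in mock 3, and 14143281, 14924200 and 6707693 in 7 day libraries 1, 2 and 3. A count of 0 allows up to 3 counts, or between 0.189 and 0.515 CPM (counts scaled to the effective library size) in these 6 libraries, as far as counting error alone goes. The first principal component of the 500 most variable genes held 53% of the variance of the 6 libraries and set the shallow ones, mock 1 and 7 day 3, apart from the other 4. The 15 of 18 listed touch and early wounding genes that passed the filter averaged 3.65 log2 CPM in mock 1 and 3.85 in 7 day 3, against 2.37 to 2.78 in the other 4 libraries. The 16 shoot and photosynthesis genes summed to 302 to 350 CPM in mock libraries and to 267, 261 and 645 CPM in 7 day libraries 1, 2 and 3. RBCS1B, RBCS2B, TGG1 and TGG2 of that list had no count in mock 2, 7 day 1 and 7 day 2, and all 16 had counts in mock 3 and 7 day 3. The part of these features in the results that follow was not tested, and values without the low-depth libraries (mock 1, 1 day 3 and 7 day 3) are given for the lists and genes where they moved most. The 21 listed root hair genes, the 26 suberin and Casparian strip genes and the 14 aquaporins all passed the filter. It does not judge each library, and 14 of the 16 shoot genes passed too, so passing cannot show root identity. Root hair genes averaged 4.18 to 4.69 log2 CPM in the 6 libraries, and suberin and Casparian strip genes 5.11 to 5.73.

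After 7 days on carbenicillin, roots had lower levels of light and UV-B response transcripts such as ELIP1, of sulfur starvation markers such as LSU2 and of the flavonol regulator MYB12. Transcripts that accompany low sugar, among them BGAL2, DIN10 and BT2, lay higher. No single gene passed the test after adjustment. In edgeR, the quasi-likelihood test called 0 of 19580 genes (0.0%), with a lowest Benjamini-Hochberg adjusted p of 0.243 for LSU2. At an unadjusted p under 0.05 it held 870 genes (4.44%), of which 478 (2.44%) were lower and 392 (2.0%) higher in 7 day roots. That share is no larger than the threshold itself would give if no gene differed. DESeq2 on the same counts called 46 genes (0.235%), 26 lower (0.133%) and 20 higher (0.102%). In edgeR those 46 genes all had an unadjusted p under 0.05 and adjusted p-values between 0.243 and 0.524. Without the 3 low-depth libraries edgeR called 13 genes (0.0662%), all of them lower.

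Most transcripts differed little between the groups. The median absolute log2 fold change of all tested genes was 0.105 and its 95th percentile 0.522, and 160 genes (0.817%) differed by at least 1 on the log2 scale. Signs were balanced, with 9727 genes (49.7%) lower in 7 day roots. The ranges of mock and 7 day values were separate in 1791 genes (9.15%), 887 lower (4.53%) and 904 higher (4.62%). With 3 libraries a group, ranges can separate in such a share of genes without any difference between the groups. The biological coefficient of variation was 0.151. The median standard error of a log2 fold change was 0.48 for genes under 1 CPM, 0.25 from 1 to 10 CPM, 0.14 from 10 to 100 CPM and 0.13 above that, so small differences were resolved least well in weakly expressed genes. In whole roots, fewer cells of a type and less RNA per cell cannot be told apart.

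**Figure D1:**
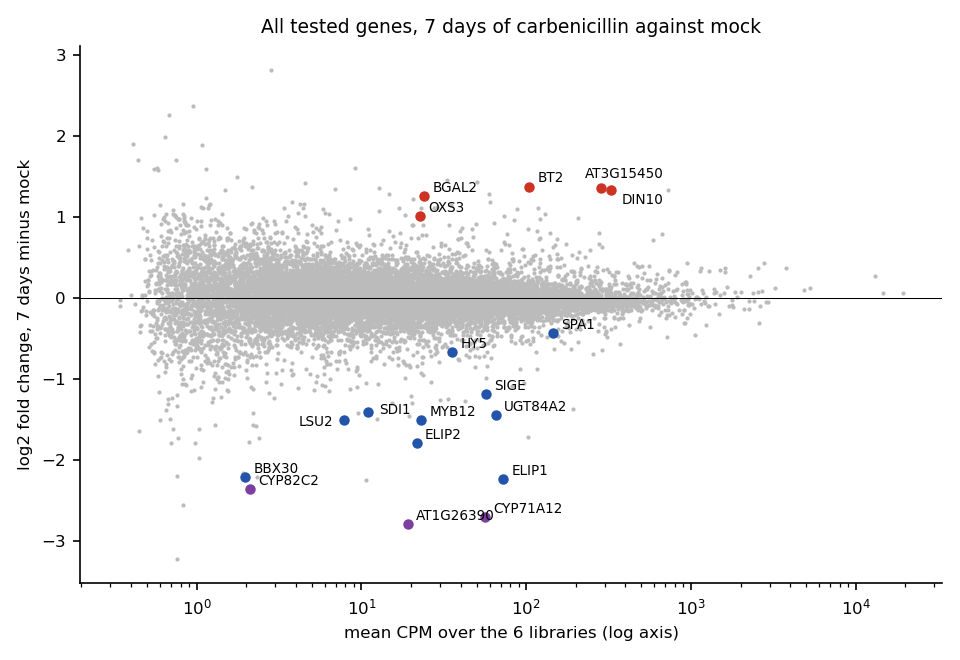
Log2 fold change of each tested gene (7 days minus mock, vertical axis) against its mean CPM over the 6 libraries (log axis). Blue points are light, flavonol and sulfur genes, red points are genes linked to low sugar and OXS3, and purple points are defence genes. ELIP1 lies at -2.23, LSU2 at -1.50 and BT2 at 1.38, away from the cloud of genes whose median absolute value is 0.105.

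Light and UV-B response genes formed the group with the most members apart between the groups. Of 26 listed genes, all of which passed the filter, 20 were lower in 7 day roots and 6 higher, with a median log2 fold change of -0.56 beside 0.0 for all tested genes. At an unadjusted p under 0.05, 17 were lower (2.44% of all tested genes) and 0 higher. In 16 members each 7 day library lay below each mock library (4.53% of all genes), and in 2 each lay above (4.62%). DESeq2 called 8 members, all of them lower (0.133% of all tested genes). Without the low-depth libraries edgeR had 17 members lower (3.27% of all genes then tested) and 1 higher (2.63%) at an unadjusted p under 0.05. Leaving out any 1 library moved the median between -0.63 and -0.49. The list was written with results of these data known and 11 of its members had been called after 1 day against the same mock libraries. Among the other 15, 9 were lower with a median of -0.16.

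ELIP1 encodes a chlorophyll-binding protein of the thylakoid that is induced by strong light. Its level was 78.3, 151 and 130 CPM in mock libraries 1, 2 and 3 and 21.4, 42.5 and 11.2 CPM in 7 day libraries 1, 2 and 3. Each 7 day value lay below each mock value, and mock 1 was the lowest mock library. The log2 fold change was -2.23 (SE 0.39; 120 ± 37.3 against 25.1 ± 16.0 CPM, SD, n = 3 each; edgeR adjusted p = 0.46, DESeq2 adjusted p = 0.0106). Its close copy ELIP2, whose reads could be shared with it, stood at 21.7, 39.9 and 39.3 CPM in mock roots and 8.76, 13.1 and 7.04 CPM after 7 days, a log2 fold change of -1.79 (SE 0.32). Both genes were among the 13 that edgeR called without the low-depth libraries, with adjusted p-values of 0.0342 and 0.0272 there.

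HY5, a bZIP factor at the centre of light signalling, had 35.6, 52.0 and 43.0 CPM in mock libraries and 25.1, 29.5 and 28.0 CPM in 7 day libraries. The groups were separate, with the 7 day values close together, and the log2 fold change was -0.67 (SE 0.15, edgeR adjusted p = 0.46, DESeq2 adjusted p = 0.0415). Its homolog HYH stood at -0.79 (SE 0.19), also without overlap. SPA1, which works with COP1 to degrade HY5 in the dark, showed the tightest replicates of the group: 164, 171 and 164 CPM in mock roots against 123, 128 and 120 CPM. That difference of -0.43 (SE 0.09) had an edgeR adjusted p of 0.46 and a DESeq2 adjusted p of 0.00676. The E3 ligase COP1 itself had a log2 fold change of -0.16, with a 95% interval from -0.39 to 0.06.

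Of the other members with roles next to HY5, some lay lower and a few did not. SIGE, a plastid sigma factor that directs the plastid RNA polymerase in light, had 53.1, 110 and 73.6 CPM in mock roots and 30.4, 39.4 and 34.9 CPM after 7 days (log2 -1.18, SE 0.22). BBX30 and BBX31, small B-box proteins, lay at -2.21 (SE 0.44) and -1.78 (SE 0.39) on the log2 scale. BBX30 was near the detection limit after 7 days, at 0.431, 1.07 and 0.600 CPM against 2.1, 5.22 and 2.42 CPM. The B-box factors STH and STO stood at -0.88 and -0.48, while BBX21 was at 0.36 (95% interval -0.01 to 0.73; 0.66 without the low-depth libraries) and BBX20 at 0.10, both with overlapping groups. RUP1, a repressor of the UV-B receptor, stood at -0.74 (SE 0.17). TZP, a zinc-finger protein that binds phytochromes, had 69.9, 84.5 and 73.7 CPM in mock roots and 43.8, 51.3 and 58.9 CPM after 7 days (log2 -0.58, SE 0.13). PKS1, a phytochrome-binding protein of root phototropism that was not on the list, was at -1.06 (SE 0.20). Of these, SIGE, BBX30, TZP and PKS1 were among the 46 genes that DESeq2 called.

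The photoreceptors themselves did not share the pattern of ELIP1. UVR8, the UV-B receptor, had a log2 fold change of 0.03 (95% interval -0.22 to 0.28). PHYA was at 0.14 (-0.08 to 0.36), CRY1 at 0.22 (-0.05 to 0.50) and CRY2 at 0.19 (-0.04 to 0.43), and PHYB was at -0.23 (-0.46 to 0.00). CRY3, a member of the cryptochrome family located in organelles, stood lower at -0.62 (SE 0.16), with no overlap between the groups. These intervals leave room for differences of up to about 0.5 in either direction for the receptors.

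**Figure D2:**
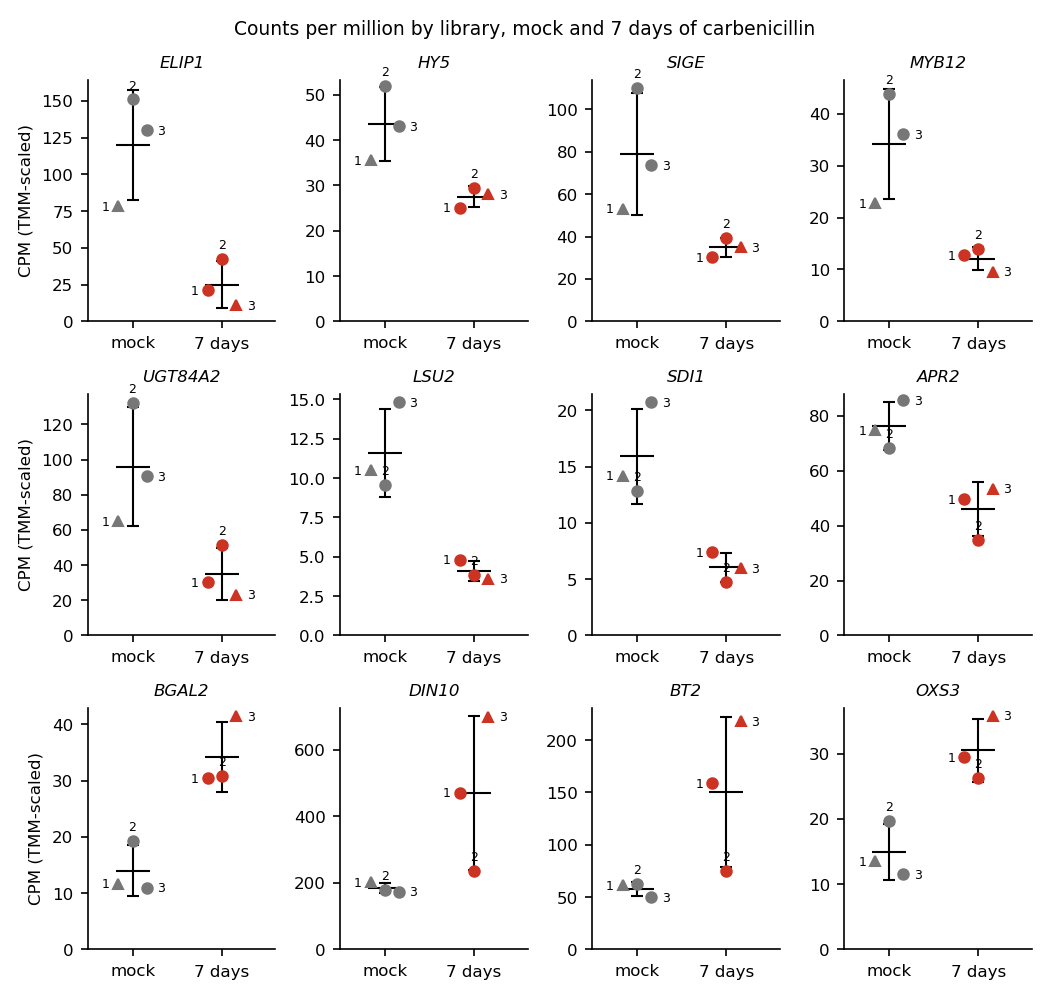
CPM of 12 genes in the 3 mock libraries (grey) and the 3 libraries after 7 days of carbenicillin (red), with the library number beside each point, triangles for low-depth libraries, and bars for the mean ± SD (n = 3). The groups do not overlap in any of the 12 panels. In absolute CPM, DIN10 and BT2 have the widest ranges among the 7 day libraries, from 237 to 700 and from 74.9 to 218 CPM. Relative to its mean, ELIP1 varies more than these, at 25.1 ± 16.0 CPM (SD).

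Flavonoid synthesis and hydroxycinnamate conjugation genes lay lower after 7 days. Of 17 listed flavonoid genes 13 passed the filter, and all 13 had lower values, with a median log2 fold change of -0.57. Only 3 of them, MYB12, DTX35 and UGT78D2, were lower at an unadjusted p under 0.05 (2.44% of all genes), and those 3 were the members with separate groups (4.53%). The 3 members called after 1 day against the same mock libraries left 10 others, with a median of -0.53, 0 at an unadjusted p under 0.05 and 0 with separate groups. MYB12, the main activator of flavonol synthesis in roots, had 22.8, 43.8 and 36.0 CPM in mock libraries and 12.7, 14.0 and 9.59 CPM in 7 day libraries. Mock and 7 day values were separate, and the latter lay within a narrow range. Its log2 fold change was -1.50 (SE 0.23), with an adjusted p of 0.395 in edgeR and 3.06e-05 in DESeq2, and edgeR called it without the low-depth libraries (adjusted p = 0.0272). The other R2R3-MYB activators of flavonol synthesis, MYB11 and MYB111, and the anthocyanin genes DFR and LDOX did not pass the filter.

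Members that act on finished flavonols came next. DTX35, a transporter of the MATE family linked to flavonoids, had 271, 372 and 296 CPM in mock roots and 192, 214 and 177 CPM after 7 days (log2 -0.69, SE 0.15, DESeq2 adjusted p = 0.00699). UGT78D2, which adds glucose to flavonols and anthocyanidins, had a log2 fold change of -1.08 (SE 0.28). In the core enzymes the groups overlapped. FLS1, the flavonol synthase, had 276, 462 and 313 CPM in mock roots and 186, 351 and 134 CPM after 7 days. Here 7 day library 2 lay above 2 of the mock libraries, and the difference of -0.64 had a 95% interval from -1.35 to 0.06. Chalcone synthase (TT4) stood at -0.33, chalcone isomerase (TT5) at -0.53 and flavanone 3-hydroxylase (F3H) at -0.57, each with overlapping groups. The median of the list depended on single libraries: it was -1.11 without 7 day 2 and -0.29 without mock 2, the 2 libraries with the highest flavonoid transcripts of their groups.

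The sinapate and hydroxycinnamate glucosyltransferase UGT84A2, counted here with the light genes, had 65.0, 132 and 90.7 CPM in mock roots and 30.3, 51.6 and 23.2 CPM after 7 days. The groups were apart, and the log2 fold change was -1.44 (SE 0.32, edgeR adjusted p = 0.46, DESeq2 adjusted p = 0.00676). UGT84A1, a close copy, stood at -1.49 (SE 0.41), with an overlap between the groups, and at -0.91 without mock 2. Earlier steps of the phenylpropanoid pathway differed less. Among its 16 listed genes 14 were lower, with a median of -0.16, and 1 was lower at an unadjusted p under 0.05 (2.44% of all genes). That gene was CAD4, an alcohol dehydrogenase of lignin synthesis, at -0.35 (SE 0.13). PAL1 and PAL2, which open the pathway, were at -0.45 and -0.35 with overlapping groups.

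Some markers of sulfur shortage were lower, while sulfate transporters were not clearly different. Of 21 listed sulfur genes 20 passed the filter, 16 of them lower and 4 higher, with a median log2 fold change of -0.41. BGLU28, which did not pass, had 2, 4 and 6 counts in mock libraries and 4, 7 and 12 counts in 7 day libraries. At an unadjusted p under 0.05, 6 members were lower (2.44% of all genes) and 0 higher, and the same 6 had no overlap between the groups (4.53% of all genes). DESeq2 called 5 of them, all lower (0.133% of all genes). With 4 members called after 1 day against the same mock libraries set aside, the other 16 had a median of -0.22 and 2 at an unadjusted p under 0.05. The median of the list was -0.24 without mock 1 and -0.48 without 7 day 1.

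LSU2 belongs to a family of small proteins induced by low sulfur. It had 10.5, 9.55 and 14.8 CPM in mock libraries and 4.81, 3.82 and 3.6 CPM in 7 day libraries, so each 7 day value was well below each mock value. The log2 fold change was -1.50 (SE 0.20, 95% interval -1.94 to -1.06, DESeq2 adjusted p = 3.06e-05), and its edgeR adjusted p of 0.243 was the lowest of all genes. LSU1, a close copy, stood at 8.41, 13.6 and 13.1 CPM in mock roots and 5.02, 6.64 and 4.65 CPM after 7 days (log2 -1.12, SE 0.24). LSU3 and LSU4, expressed more weakly, had values of -0.67 and -0.41 with overlapping groups.

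SDI1 and SDI2, which hold back glucosinolate synthesis when sulfur is short, showed the same order of groups. SDI1 had 14.2, 12.8 and 20.7 CPM in mock roots and 7.39, 4.76 and 6.00 CPM after 7 days (log2 -1.40, SE 0.23, edgeR adjusted p = 0.395). SDI2 had 28.4, 25.4 and 30.2 CPM against 14.6, 15.4 and 16.9 CPM (log2 -0.84, SE 0.14, edgeR adjusted p = 0.395). The groups were apart in both, and replicates of SDI2 lay within a few CPM of each other. SDI2 overlaps an annotated neighbour, so its reads may include some of that gene.

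Among the enzymes of sulfate assimilation, APR2, the main adenosine phosphosulfate reductase, had 74.8, 68.4 and 85.6 CPM in mock roots and 49.6, 34.8 and 53.5 CPM after 7 days. The groups did not overlap, and the log2 fold change was -0.74 (SE 0.17). APR1 and APR3 had values of -0.53 and -0.44 with overlapping groups. SHM7, a serine hydroxymethyltransferase that rises under sulfur shortage, was at -0.42 (SE 0.10), from 133 to 136 CPM in mock roots down to 90.9 to 108 CPM. ATP sulfurylase APS1 was at 0.08 (95% interval -0.20 to 0.35). The uptake transporters SULTR1;1 and SULTR1;2 had log2 fold changes of 0.04 and -0.24, with intervals from -0.58 to 0.66 and from -0.80 to 0.32. SLIM1, the EIN3-like regulator of the response listed as EIL3, was at -0.02 (-0.26 to 0.22).

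Transcripts linked to low sugar and darkness lay higher after 7 days. Of 15 listed genes 13 passed the filter, 11 of them higher and 2 lower, with a median log2 fold change of 0.54. At an unadjusted p under 0.05, 8 were higher (2.0% of all genes) and 0 lower, and in 7 members each 7 day library lay above each mock library (4.62% of all genes). The group leaned on 7 day 3, the low-depth library with raised touch and shoot transcripts. Its median was 0.32 without that library and 0.95 without mock 2. Without the 3 low-depth libraries it was 0.28. At an unadjusted p under 0.05, 3 members were then higher (2.63% of all genes in that fit) and 1 lower (3.27%). BGAL2 was the 1 member called after 1 day against the same mock libraries. The other 12 had a median of 0.5 with all libraries, and 6 of them had separate groups with 7 day roots higher.

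BGAL2, a beta-galactosidase that acts on cell wall galactans, had 11.7, 19.2 and 11.0 CPM in mock roots and 30.4, 30.8 and 41.4 CPM after 7 days. The groups were well apart, and the log2 fold change was 1.26 (SE 0.24, edgeR adjusted p = 0.46, DESeq2 adjusted p = 0.0014). Without the low-depth libraries it was 1.02. DIN10, also known as a raffinose synthase family member, had 203, 178 and 174 CPM in mock roots and 472, 237 and 700 CPM after 7 days. Mock values were alike while the 7 day values differed among themselves by more than the gap between the groups. Its log2 fold change was 1.34 (SE 0.33), and it ranged from 0.94 to 1.66 when single libraries were left out. DRM1, a dormancy-associated gene, was at 1.01 (SE 0.30) with separate groups, at 0.62 without 7 day 3 and at 0.57 without the low-depth libraries. DIN1, a senescence-associated gene, was at 1.22 (SE 0.51), and its lowest 7 day value of 23.9 CPM barely cleared the 23.8 CPM of mock 2. Its value was 2.26 without mock 2 and 0.69 without the low-depth libraries. Trehalose phosphate synthase family genes were mixed, with TPS8 at 0.80 (overlapping groups), TPS9 at 0.54 and TPS10 at 0.41, and TPS5 at -0.10. Without 7 day 3 the first 3 of these were at 0.44, 0.27 and 0.23, and without the low-depth libraries at 0.47, 0.25 and 0.28. DIN6, the asparagine synthetase ASN1, was at 1.08 with overlapping groups and at -0.07 without the low-depth libraries.

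Several genes outside the list also lay higher. In those named below except BT1, 7 day 2 was the lowest of the 7 day libraries and 7 day 3 the highest. BT2, a BTB and TAZ domain protein that responds to sugar and nitrogen, had 61.1, 62.4 and 50.1 CPM in mock roots and 159, 74.9 and 218 CPM after 7 days. As for DIN10, 7 day 2 was the closest to the mock libraries and 7 day 3 the farthest. The log2 fold change was 1.38 (SE 0.32), and the related BT1 was at 1.29. AT3G15450, annotated as an aluminum-induced protein, had 119, 213 and 147 CPM against 394, 288 and 555 CPM (log2 1.36, SE 0.31). BCE2, a subunit of branched-chain keto acid dehydrogenase also known as DIN3, stood at 0.86 (SE 0.20). BZO2H3, which is bZIP63, a factor that acts with the energy sensor SnRK1, stood at 0.78 (SE 0.18). AT1G61740, annotated as a TauE/SafE family exporter, had 81.3, 64.7 and 75.2 CPM in mock roots and 140, 103 and 154 CPM after 7 days (log2 0.85, SE 0.16). All of these were separate between the groups and were called by DESeq2, with edgeR adjusted p-values of 0.524 for BT1 and 0.46 for the others. Without the low-depth libraries BT2 was at 1.06, BT1 at 1.22, AT3G15450 at 0.92, BCE2 at 0.67, BZO2H3 at 0.66 and AT1G61740 at 0.8.

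OXS3, a chromatin-associated stress tolerance factor on the detoxification list, had 13.5, 19.7 and 11.5 CPM in mock roots and 29.5, 26.3 and 35.8 CPM after 7 days. The groups did not overlap, and the log2 fold change was 1.01 (SE 0.20, edgeR adjusted p = 0.46, DESeq2 adjusted p = 0.00562). SUC2, the sucrose transporter of phloem companion cells, had 17.2, 26.8 and 19.9 CPM against 35.7, 34.1 and 29.8 CPM (log2 0.63, SE 0.19). The other 3 phloem genes listed were PP2-A1 at 0.37, SEOB at 0.20 and APL at 0.04, each with overlapping groups.

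**Figure D3:**
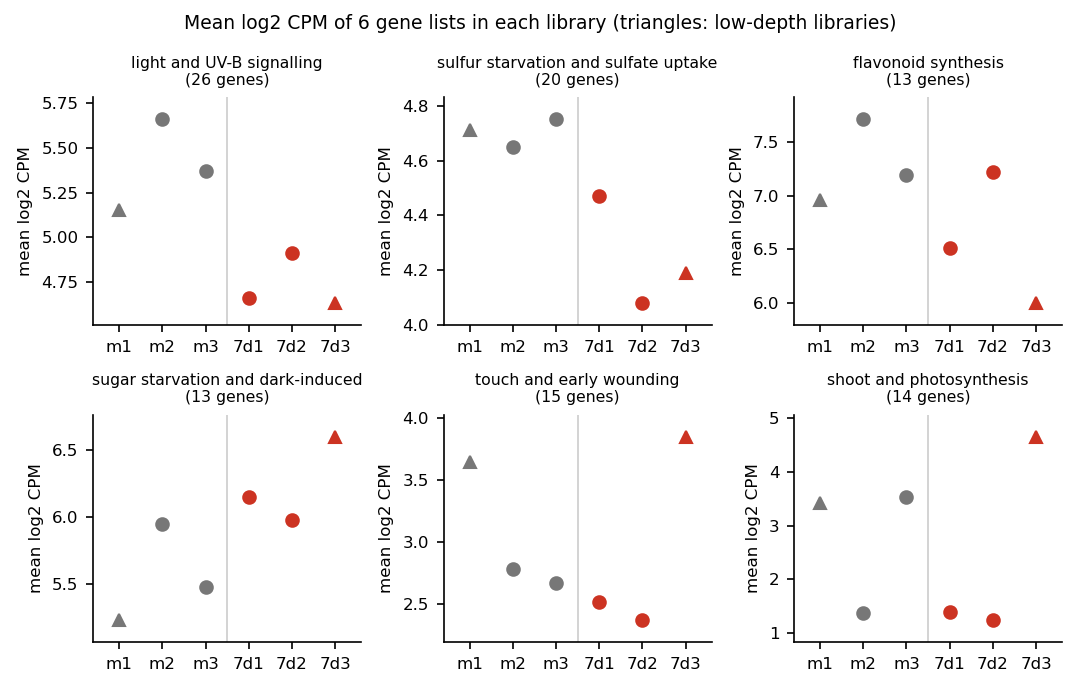
Mean log2 CPM of the tested members of 6 gene lists in each library (m1 to m3, mock; 7d1 to 7d3, 7 days), with triangles for low-depth libraries. Light genes lie between 5.15 and 5.66 in mock and between 4.63 and 4.91 after 7 days, while touch genes are high in mock 1 and 7 day 3, and shoot genes in mock 1, mock 3 and 7 day 3.

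Several defence-related genes, named by their low p or their call without the low-depth libraries, were high in mock 2 and mock 3 and low in mock 1 and in all 7 day libraries. The immunity and camalexin list as a whole did not have that order, with means of 4.19, 4.18 and 4.56 log2 CPM in mock libraries and 4.12, 3.89 and 3.82 in 7 day libraries. CYP71A12, a P450 of camalexin and indole-carbonyl nitrile synthesis, had 29.4, 75.3 and 190 CPM in mock libraries 1, 2 and 3 and 17.7, 22.7 and 3.3 CPM after 7 days. The groups did not overlap, but the mock values spread over a wide range, and the log2 fold change of -2.70 had a standard error of 0.79 (edgeR adjusted p = 0.703). CYP82C2, which hydroxylates indole-carbonyl nitriles, had 0.701, 4.27 and 5.45 CPM in mock roots and 1.08, 0.470 and 0.600 CPM after 7 days. Mock 1 was within the range of the 7 day libraries there, and the log2 fold change was -2.36 (SE 0.66). PAD3, the last enzyme of camalexin synthesis, was at -0.74 (SE 0.28) with overlapping groups, and at -0.33 without mock 3.

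A like order of libraries was seen in neighbouring berberine family oxidases and in genes that modify indole glucosinolates. AT1G26380 had 5.43, 21.7 and 25.3 CPM in mock roots and 3.88, 4.43 and 3.00 CPM after 7 days (log2 -2.24, SE 0.48), and AT1G26390 had 4.73, 45.4 and 50.9 CPM against 5.10, 7.78 and 0.899 CPM (log2 -2.79, SE 0.81). These genes and AT1G26410 are close copies whose reads may be shared. CYP81F2, which hydroxylates indole glucosinolates for defence, had 10.9, 30.7 and 41.8 CPM against 13.8, 14.6 and 7.94 CPM (log2 -1.21, SE 0.39). IGMT2, a methyltransferase of the next step, had 15.2, 42.4 and 49.0 CPM against 17.0 to 18.6 CPM (log2 -1.04, SE 0.37). In both, mock 1 overlapped the 7 day libraries. CBP60G, a calmodulin-binding activator of salicylic acid synthesis, had 0.876, 4.02 and 4.44 CPM against 0.861, 0.805 and 0.450 CPM (log2 -2.16, SE 0.55).

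Leaving out the low-depth libraries, which removes mock 1 and 7 day 3, brought some of these genes past the threshold. CYP71A12 (adjusted p = 0.187 in edgeR) and CYP82C2 (0.0661) stayed outside it. edgeR then called AT1G26380, AT1G26390 and AT1G26410 (each with an adjusted p of 0.0342), IGMT2 (0.0287), CYP81F2 (0.036) and CBP60G (0.036), each lower in 7 day roots. With them came CCOAMT, annotated as a caffeoyl-CoA methyltransferase (0.0318), AT2G15220, annotated as a basic secretory protein (0.0287), and PRR9, MYB12, ELIP1 and ELIP2. SAG13, a senescence- and defence-associated gene, did not pass the low-count filter with all libraries, at 3, 55 and 83 counts in mock libraries 1, 2 and 3 and 1, 7 and 3 counts after 7 days. In that fit each group holds 2 libraries, so the calls rest on mock 2 and mock 3.

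**Figure D4:**
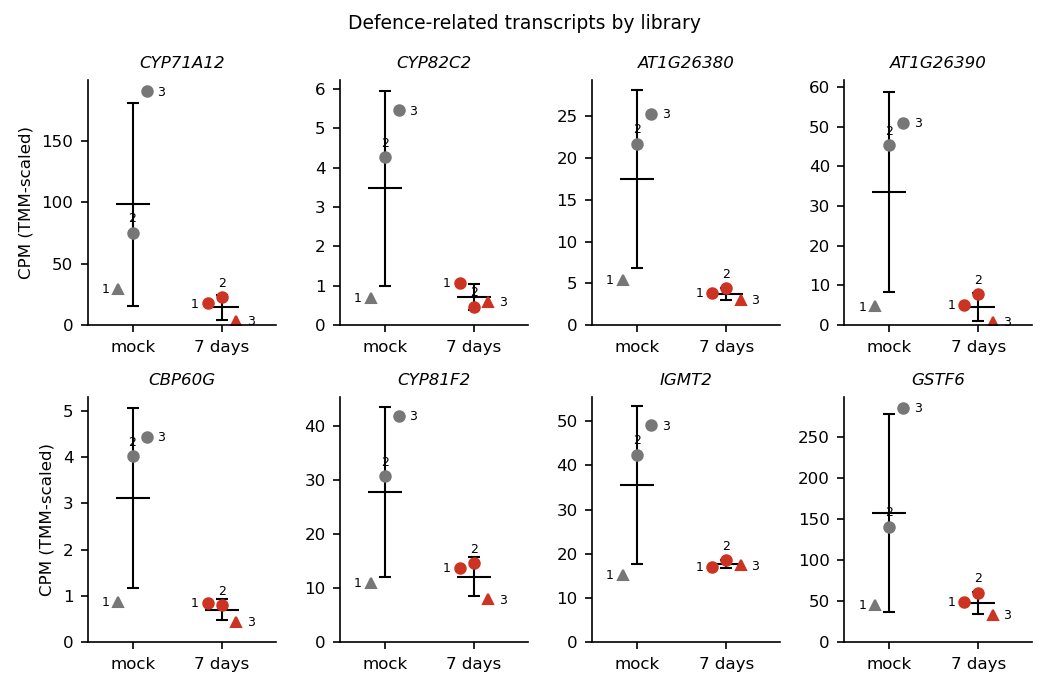
CPM of 8 defence-related genes in the 3 mock libraries (grey) and the 3 libraries after 7 days of carbenicillin (red), with library numbers, triangles for low-depth libraries and bars for the mean ± SD (n = 3). In each panel mock 2 and mock 3 lie above all 7 day libraries, and mock 1 lies near them; for CYP71A12 the mock values run from 29.4 to 190 CPM.

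The immunity and camalexin list holds CYP71A12, CYP82C2 and PAD3 beside genes of immune signalling. Of its 22 genes 18 passed the filter, 12 of them lower, with a median log2 fold change of -0.13. Those 3 and PAD4 were the 4 members lower at an unadjusted p under 0.05 (2.44% of all genes). PAD4, a lipase-like partner of EDS1, had 21.5, 20.2 and 22.3 CPM in mock roots and 16.6, 15.8 and 16.8 CPM after 7 days, with tight replicates and no overlap (log2 -0.38, SE 0.11, edgeR adjusted p = 0.739). EDS1 was at -0.05 (95% interval -0.24 to 0.14), and the receptor kinases BAK1 and CERK1 were at 0.00 (-0.21 to 0.21) and -0.10 (-0.38 to 0.19). PR1, PR2 and PR5 did not pass the filter.

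Glutathione transferases on the detoxification list were in part lower. Of 25 listed genes 23 passed the filter, 21 of them lower, with a median of -0.09, and at an unadjusted p under 0.05 there were 4 lower (2.44% of all genes) and 1 higher (2.0%), the last being OXS3. GSTU5 had 42.2, 55.9 and 49.0 CPM in mock roots and 29.9, 32.8 and 24.0 CPM after 7 days, with no overlap (log2 -0.76, SE 0.23). GSTF6 had 45.9, 141 and 286 CPM against 49.4, 60.6 and 33.4 CPM (log2 -1.72, SE 0.54), so mock 1 lay among the 7 day libraries, and the value was -0.98 without mock 3. The other GSTU members were mostly close to mock, such as GSTU19 at -0.06 (95% interval -0.41 to 0.29) and GSTU8 at -0.17 (-0.49 to 0.15). The list's median was -0.19 without mock 2. Without the low-depth libraries it was -0.11, and 15 of the 23 genes were then lower.

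Suberin and Casparian strip genes lay lower by small amounts. All 26 listed genes passed the filter, 24 were lower and 2 higher, and the median log2 fold change was -0.29. At an unadjusted p under 0.05, 5 were lower (2.44% of all genes) and 0 higher, and the groups were separate, with 7 day roots lower, in 5 (4.53%). CYP86B1, a hydroxylase of very long chain suberin monomers, had 67.6, 68.6 and 75.7 CPM in mock roots and 41.1, 48.8 and 43.6 CPM after 7 days. The groups were clearly apart, and the log2 fold change was -0.67 (SE 0.14, edgeR adjusted p = 0.46, DESeq2 adjusted p = 0.0291). ABCG20 and ABCG6, transporters that export suberin precursors, were at -0.56 (SE 0.18) and -0.67 (SE 0.30), and the feruloyl transferase ASFT was at -0.44 (SE 0.19). GPAT5, an acyltransferase of suberin synthesis, was at -0.51 with overlapping groups, and at -0.32 without mock 2. The value of ABCG6 was -0.43 without 7 day 3. Casparian strip genes were nearer to mock, with CASP1 at -0.14 (95% interval -0.46 to 0.18) and the regulator MYB36 at 0.25 (-0.09 to 0.59). The median of the list was -0.46 without 7 day 2.

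**Figure D5:**
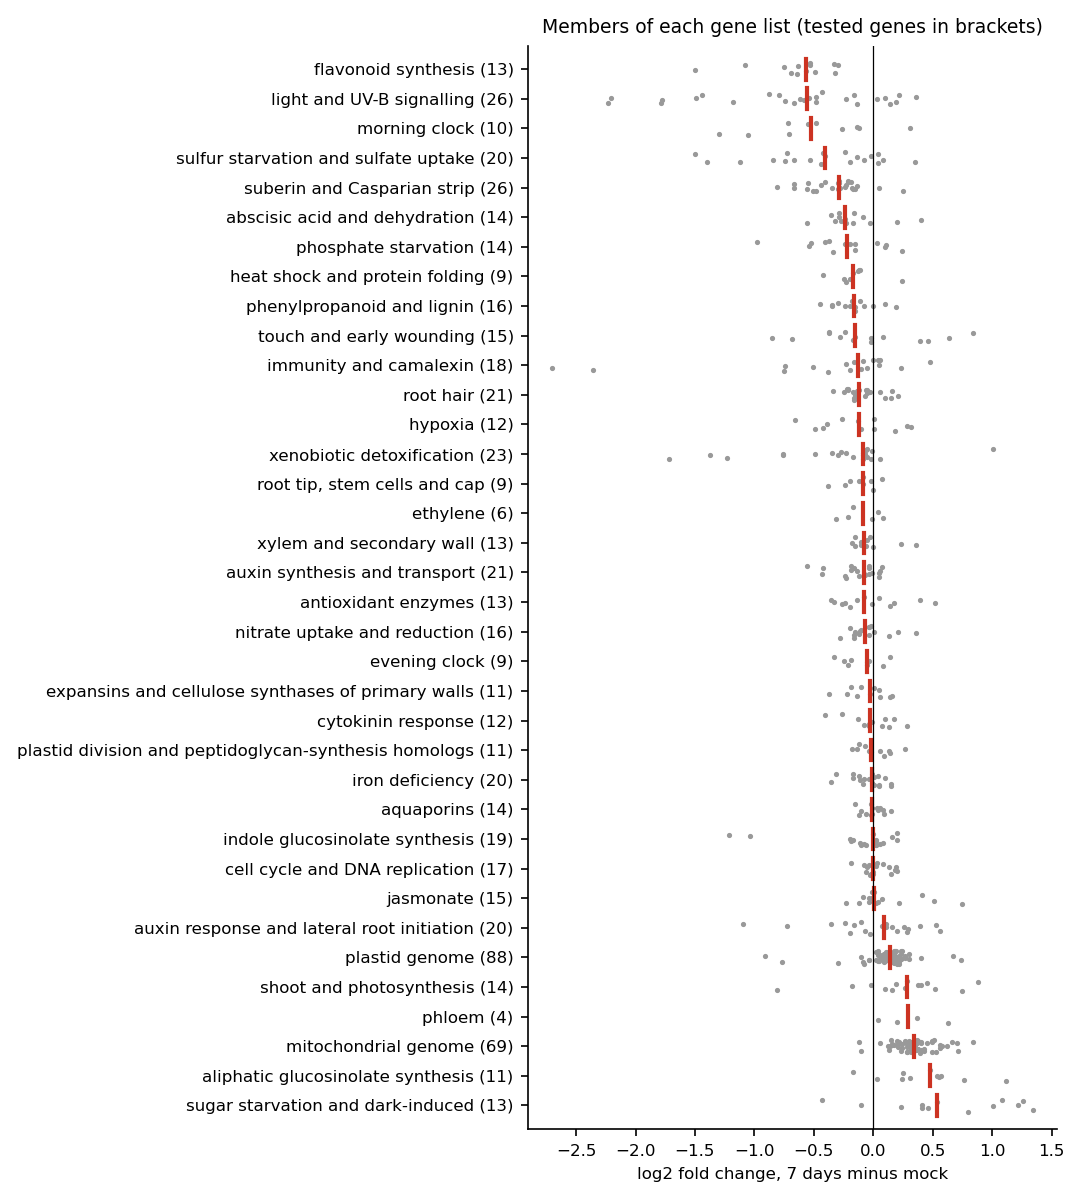
Log2 fold change (7 days minus mock) of each tested member of the 36 gene lists (grey points), with the list's median as a red bar and the number of tested members in brackets. Flavonoid, light, morning clock and sulfur genes have the lowest medians, from -0.57 to -0.41, and sugar starvation genes have the highest at 0.54.

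Auxin genes were close to mock with a few exceptions. Of 24 listed response and lateral root initiation genes 20 passed the filter, 9 lower and 11 higher, with a median of 0.09. IAA14, an Aux/IAA repressor that blocks lateral root initiation when stabilised, had 27.2, 29.3 and 33.0 CPM in mock roots and 18.4, 20.6 and 14.5 CPM after 7 days. The groups did not overlap, and the log2 fold change was -0.73 (SE 0.15, edgeR adjusted p = 0.46, DESeq2 adjusted p = 0.025). LBD16, a lateral root initiation factor, was at 0.16 (95% interval -0.21 to 0.53), and ARF7, which acts upstream of it, at -0.03 (-0.28 to 0.22). GH3.3, which conjugates auxin, had 2.98, 4.08 and 31.3 CPM in mock roots and 8.33, 5.84 and 4.20 CPM after 7 days. Its value of -1.10 rested on mock 3 and became 0.77 without it. Among 21 of 22 listed genes of auxin synthesis and transport, 17 were lower with a median of -0.08. PIN4, an efflux carrier of the root tip, had 21.7 to 30.1 CPM in mock roots and lower values, from 15.2 CPM up, in all 7 day libraries (log2 -0.56, SE 0.15).

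Glucosinolate genes were listed by branch. All 19 indole branch genes passed the filter, 9 lower and 10 higher, with a median of 0.00. CYP79B2 and CYP79B3, which open the branch, were at 0.02 (95% interval -0.33 to 0.36) and 0.20 (-0.10 to 0.50), and their regulator MYB34 was at -0.20 (-0.45 to 0.06). In the aliphatic branch 11 of 14 genes passed the filter, 10 of them higher, with a median of 0.48, but 1 was higher at an unadjusted p under 0.05 (2.0% of all genes) and no member had separate groups. MAM1, a chain elongation enzyme, had 17.2, 13.9 and 21.3 CPM in mock roots and 61.9, 29.6 and 20.7 CPM after 7 days (log2 1.12, SE 0.44), and its value was 0.54 without 7 day 1. The branch was high in 7 day 1 and not in 7 day 3, and its median was -0.13 without 7 day 1. Without the low-depth libraries all 11 genes were higher, with a median of 0.84 and 5 at an unadjusted p under 0.05 (2.63% of all genes in that fit).

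Root hair genes were near their mock levels. Of 21 genes 16 were lower, with a median of -0.12. RHD2, the NADPH oxidase of growing hairs, was the member with the lowest p, at 120, 124 and 121 CPM in mock roots and 105, 105 and 95.8 CPM after 7 days (log2 -0.25, SE 0.09, edgeR adjusted p = 0.921). RHD6 and RSL4, transcription factors of hair growth, were at -0.17 (95% interval -0.47 to 0.12) and -0.22 (-0.62 to 0.19). Without 7 day 3 the median was -0.01.

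Plastid homologs of bacterial peptidoglycan-synthesis enzymes were examined because that synthesis is the target of the drug in bacteria. Plastid division genes such as PDV2, at -0.18, were listed with them. The 11 listed genes all passed the filter, with a median of -0.02 and a range from -0.18 to 0.27 over both kinds. MURE, a ligase homolog needed for plastid development in Arabidopsis, was at 0.06 (95% interval -0.34 to 0.45), MURG at 0.27 (-0.16 to 0.71) and MRAY at -0.12 (-0.47 to 0.23). FTSZ1-1, a ring protein of plastid division, was at 0.13 (-0.26 to 0.52) and ARC6, which anchors the ring, at -0.02 (-0.28 to 0.24). No member reached an unadjusted p under 0.05.

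Most transcripts of the organelle genomes had positive log2 fold changes, but few were apart from mock. In the plastid genome 88 of 133 genes passed the filter and 80 were higher, with a median log2 fold change of 0.14, while 2 genes were higher at an unadjusted p under 0.05 (2.0% of all genes). Without the low-depth libraries the plastid median was 0.05, and 29 of the 88 genes were lower. In the mitochondrial genome 69 of 146 genes passed and 67 were higher, with a median of 0.34 and 1 higher at an unadjusted p under 0.05, and no member had separate groups. Members of a genome share transcripts and are not independent. The mitochondrial median was 0.10 without 7 day 2. Without the low-depth libraries it was 0.53, with 30 of the 69 genes higher at an unadjusted p under 0.05 (2.63% of all genes in that fit) and 0 lower. The mitochondrial share of all counts was 5.94%, 3.18% and 2.2% in mock libraries and 3.33%, 4.42% and 5.31% in 7 day libraries, and the plastid share was 1.81% to 2.07% and 1.91% to 2.41%, so both shares overlapped between the groups.

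Clock genes of the morning lay lower, led by PRR9, a pseudo-response regulator, at 14.7, 39.4 and 31.6 CPM in mock roots and 10.7, 12 and 13.2 CPM after 7 days (log2 -1.30, SE 0.31, edgeR adjusted p = 0.46). There was no overlap, with mock 1 closest to the 7 day libraries. Of the 10 listed genes 9 were lower, with a median of -0.52 that became 0.10 without mock 2 and -0.91 without 7 day 2. CCA1, a morning MYB factor, had 37.3, 120 and 34.3 CPM in mock roots and 25.2, 60.0 and 31.6 CPM after 7 days, with the second library of each group the highest. The 9 evening genes had a median of -0.05, and GI, an evening clock protein, was at -0.33 (SE 0.11) without overlap.

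Nutrient and stress lists other than sulfur had small medians. Phosphate starvation genes, 14 of 17 tested, were at -0.22, with the transporter PHT1;4 at -0.37 (SE 0.13) and SPX1, a phosphate sensor, at -0.98 (SE 0.41), which became -0.26 without mock 2. Iron deficiency genes were at -0.01 and nitrate genes at -0.07, both with 0 members at an unadjusted p under 0.05, and the nitrate median was 0.12 without the low-depth libraries. Genes of abscisic acid and dehydration were at -0.24, with the dehydrin ERD10 at -0.36 (SE 0.14). Antioxidant enzymes were at -0.08, hypoxia genes at -0.12, ethylene genes at -0.09, jasmonate genes at 0.01 and heat shock genes at -0.17. Cell cycle genes were at 0.00 with a range from -0.19 to 0.20, root tip genes at -0.09, xylem genes at -0.08, cytokinin response genes at -0.03, and primary wall expansins and cellulose synthases at -0.03. Aquaporins were at -0.01, with a range from -0.15 to 0.15. Touch genes, which were high in mock 1 and 7 day 3, were at -0.15, at -0.63 without 7 day 3 and at 0.18 without 7 day 2. Without the low-depth libraries they were at -0.36, with 6 of 14 tested lower at an unadjusted p under 0.05 (3.27% of all genes in that fit). Shoot genes were at 0.28 with all libraries and at -2.34 without 7 day 3. The latter value includes members at the floor, since 4 of the 16 listed had no count in 7 day 1 and 5 in 7 day 2. Without the low-depth libraries 8 shoot genes were tested, with a median of -0.23. All 8 were lower, 3 of them at an unadjusted p under 0.05 (3.27% of all genes in that fit).

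Values after 1 day on carbenicillin are set beside those after 7 days, both against the same mock libraries, so the effects share that error. The median log2 fold change of light genes was -0.80 after 1 day and -0.56 after 7 days, that of flavonoid genes -1.21 and -0.57, that of sulfur genes -0.63 and -0.41, and that of sugar starvation genes 0.63 and 0.54. For suberin and Casparian strip genes it was -0.05 and -0.29. The direct contrast of 7 day with 1 day roots, in which mock libraries cancel, called 0 of 19580 genes in edgeR. Its lowest adjusted p was 1.0. At an unadjusted p under 0.05 it held 398 genes, fewer than the threshold itself would give if no gene differed.

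For some of the genes named above the differences between the exposures are given here, and none of these differences was called. ELIP1 had 25.1 ± 16.0 CPM after 7 days and 9.52 ± 2.73 CPM after 1 day (SD, n = 3 each), a log2 difference of 1.47 (SE 0.42, edgeR adjusted p = 1.0). UGT84A2 differed by 1.13 (SE 0.34) and UGT78D2 by 0.87 (SE 0.29), both higher after 7 days than after 1 day. LSU2 differed by 0.07 (SE 0.22), SDI1 by 0.19 (SE 0.24), BGAL2 by -0.21 (SE 0.23) and OXS3 by 0.01 (SE 0.19). CYP86B1 differed by -0.27 (SE 0.14) and ABCG20 by -0.51 (SE 0.18), both lower after 7 days.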

How the data were processed

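Stranded total RNA libraries of roots were counted per gene by the authors, who deposited the raw counts; the aligner, counter, genome build and strandedness of counting were not given in the sources used here. FastQC, cutadapt and edgeR are named in the submitters' processing notes. Counts of the 28775 genes were fitted with edgeR 4.0.16 (R 4.3.3) after filterByExpr and TMM scaling, with all 9 libraries and the group as the only term, and tested by the quasi-likelihood test with Benjamini-Hochberg adjustment at 0.05. CPM values carry TMM-scaled library sizes, except the floor of a 0 count and the shoot gene sums, which use raw totals. DESeq2 1.42.0 was an alternative. The fit was also run on simulated counts drawn independently for each gene. Those counts lacked the touch and shoot differences between libraries, so that run cannot vouch for the test here.

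Gene lists and members were chosen with earlier results of these data known. Named genes were the 15 lowest p-values per direction with a mean of at least 1 CPM, the 10 lowest p per direction among DESeq2 calls, genes called without the low-depth libraries (under 10000000 counts), the 3 lowest p of each list, and a fixed set that included LSU2, MYB12, HY5 and ELIP1. Further genes and list members named, such as BT1, PHYA and GSTU8, were chosen after their values were seen. Names follow the RefSeq table, which held 28009 of the genes. Several genes named, among them SDI2, DTX35, APR2, DIN10, AT3G15450, BCE2, PKS1, STO, STH, UGT84A1, TT4, F3H and ASFT, overlap an annotated gene, so their counts are uncertain. Promoter and protein sequences were not used here.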

Additional observations from a re-analysis of the deposited data

How the results depend on the processing

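The number of genes called by edgeR stayed at 0 under RLE and upper-quartile scaling, without a low-count filter, with a filter of 1 CPM in 3 libraries, with only the 2 groups compared, with organelle genes and ribosomal RNA left out, at an adjusted p under 0.10 and without any single library, while the number at an unadjusted p under 0.05 ran from 540 without mock 3 to 1054 without 7 day 2. DESeq2 called 46 genes, the fit without the 3 low-depth libraries 13, and a fit that added the depth class 2; the cause was not tested. Same-numbered mock and 7 day libraries had correlations of -0.087, 0.423 and -0.187, so the numbers were not taken as pairs; with the replicate block edgeR called 0 genes (984 at an unadjusted p under 0.05), and 0 (911) in the 2 groups alone. The median standard error was largest for genes under 1 CPM, at 0.48, and its relation to depth was not tested.

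Some log2 fold changes changed sign, most of them near 0 with all libraries; DIN6 (1.08), GH3.3 (-1.10) and CCA1 (-0.72) were not near 0. None of these genes was called. Without the 3 low-depth libraries GSTU19 was at 0.04, DIN6 at -0.07, TPS5 at 0.02, BAK1 at -0.02, CYP79B2 at -0.13, ARF7 at 0.07, ARC6 at 0.06 and UVR8 at -0.01, and with the replicate block SULTR1;1 was at -0.05, or -0.06 in the 2 groups alone. Leaving out single libraries gave ranges of -0.03 to 0.15 for MURE, -0.01 to 0.30 for BBX20, -0.10 to 0.03 for EIL3, -0.20 to 0.04 for GSTU19, -0.02 to 0.08 for APL, -1.54 to 0.77 for GH3.3, -0.26 to 0.01 for CASP1, -1.20 to 0.14 for CCA1, -0.05 to 0.14 for APS1, -0.21 to 0.28 for SULTR1;1, -0.03 to 0.05 for BAK1, -0.07 to 0.16 for CYP79B2, -0.09 to 0.07 for ARF7, -0.07 to 0.05 for ARC6 and -0.07 to 0.09 for UVR8.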
